A study of Mus musculus with 20 samples.

Results

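The genes described here are 42 interferon-stimulated genes, picked by symbol for their known response to interferon, out of the 24552 genes measured. *Sp100* joined the list because it rose with age in these same libraries, so its values are a description with no test. Counts are given without it, and the main counts of calls against young libraries also with it. All 42 genes were found, and 39 of them had a mean of at least 10 normalized counts over the 20 libraries, the minimum for the test. *Oas1a*, *Mx1* and *Mx2* fell below it and are described by their values.

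The libraries came from the corneal epithelium of naïve, wild-type female C57BL/6J mice, scraped from the cornea and sequenced in bulk from the 3′ end of the transcripts. Each library held both corneas of 1 animal, and there were 5 libraries at each of 4 ages, 2 to 3 months (young), 12 to 13 months (12-month), 18 to 19 months (18-month) and 24 to 25 months (24-month). The mice were bought, aged in house or received from the National Institute on Aging, and because the source of each animal was not given, source and age cannot be told apart. Between 6699383 and 10762360 reads per library fell on genes, with a median of 8731333. *Krt12*, the keratin that defines the corneal epithelium, had 203580 to 285895 normalized counts in the 20 libraries, whereas *Ptprc*, the pan-leukocyte marker CD45, had 3.66 to 54.8. Markers of stromal keratocytes were read as well. The summed level of 12 of them was 1848 to 4934 in young and 374 to 1700 in aged libraries. Of the 10 tested, 7 were downregulated with age. *Kera* and *Lum*, which define keratocytes, had aged-to-young log2 fold changes of −2.4 (95% interval −4.24 to −0.56) and −1.47 (−2.44 to −0.5). In each, 12 of the 15 aged libraries lay below every young one. Neither was called (limma adjusted p = 0.333 and 0.196). In bulk tissue, fewer cells of a type and less RNA per cell cannot be told apart.

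Interferons are secreted by cells that sense viral nucleic acid or other danger. Type I and type III interferons act through receptor-bound kinases on a complex that holds STAT2 and IRF9 and binds a DNA element called the ISRE, while interferon gamma acts on an element called GAS. The genes switched on this way encode more sensors, the transcription factors of the pathway itself and proteins that block viral entry, translation and budding. At the ocular surface this response is known as a defence of the epithelium against herpesviruses and adenoviruses.

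The promoters are shown as a description of these genes apart from their level, and not all of them hold a motif of the pathway. The genes were picked for their known response to interferon, so a higher share of motifs among them is no test. RefSeq promoter windows (GRCm38.p6, 250 bases before to 50 after each start) were matched by gene identifier for 33 of the 42 genes, with 39 windows. An ISRE core, spelled GAAANNGAAA and searched on both strands, was in 16 of the 39 windows (41%) and in 3.44% of all 32851 windows. A GAS element, spelled TTCNNNGAA and the same on both strands, was in 9 of the 39 (23.1%) and in 8.3% of all windows. The letters of one spelling may run into the other, and a match is a description of letters and not a shown binding site. The bases upstream of the start are given below on the strand of each gene for some of the 42 genes, most of them with a motif. Of these, *Isg15*, *Ifit1*, *Bst2*, *Gbp2* and *Igtp* were called in no comparison. *Irf7*, *Irf9*, *Ifi44*, *Xaf1* and *Lgals3bp* were among the genes with windows but no ISRE core. Capitals mark the ISRE core in *Isg15* (chr4:156200819-156200948, minus strand), *Ifit1* (chr19:34640759-34640888, plus), *Bst2* (chr8:71537473-71537602, minus), *Gbp2* (chr3:142620533-142620662, plus) and *Igtp* (chr11:58199426-58199555, plus), and the GAS in *Irf1* (chr11:53769884-53770013, plus). *Sp100* (chr1:85649738-85649947, plus) is printed up to the first base of the annotated gene, and neither spelling was found in its 300-base windows or in those of *Sp110* and *Sp140*.
Isg15: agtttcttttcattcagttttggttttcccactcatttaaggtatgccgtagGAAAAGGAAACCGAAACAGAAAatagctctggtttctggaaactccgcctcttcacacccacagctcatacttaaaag
Ifit1: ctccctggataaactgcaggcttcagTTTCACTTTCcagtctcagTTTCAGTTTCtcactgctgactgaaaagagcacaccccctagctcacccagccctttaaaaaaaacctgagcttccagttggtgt
Bst2: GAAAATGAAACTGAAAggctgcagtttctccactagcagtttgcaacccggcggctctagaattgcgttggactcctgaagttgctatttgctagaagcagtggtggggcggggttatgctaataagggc
Gbp2: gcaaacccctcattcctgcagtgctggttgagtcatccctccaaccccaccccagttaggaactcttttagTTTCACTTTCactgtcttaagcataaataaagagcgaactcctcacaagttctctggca
Igtp: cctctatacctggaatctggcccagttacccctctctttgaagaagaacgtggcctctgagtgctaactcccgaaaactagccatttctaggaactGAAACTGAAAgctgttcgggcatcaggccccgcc
Irf1: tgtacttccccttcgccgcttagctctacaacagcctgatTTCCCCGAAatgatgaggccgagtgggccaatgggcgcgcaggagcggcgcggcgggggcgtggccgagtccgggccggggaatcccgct
Sp100: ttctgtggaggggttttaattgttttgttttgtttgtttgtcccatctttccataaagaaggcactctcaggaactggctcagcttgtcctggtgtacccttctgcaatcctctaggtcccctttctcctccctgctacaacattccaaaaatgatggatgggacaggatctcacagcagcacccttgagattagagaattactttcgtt

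The first comparison asked which interferon-stimulated genes moved with age. Apart from *Sp100*, 0 of the 38 tested genes were differentially expressed between the 15 aged and the 5 young libraries. A gene was called when its Benjamini-Hochberg adjusted p from limma was 0.05 or less over all 11288 tested genes and its change at least 1.2-fold, which held for 1.01% of all genes in this comparison. At an unadjusted p below 0.05 there were 4 of 38 (10.5%), beside 7.89% of all genes, and with voom on the recovered reads 0 were called and 5 had an unadjusted p below 0.05. The median log2 fold change of the 38 was −0.04, beside −0.01 for all tested genes, with 17 above 0 and 21 below. In 0 of the 38 did the 15 aged libraries lie wholly on one side of the 5 young ones, as they did in 0.461% of all genes. In 24 of the 38 the 95% interval of the change lay wholly within 2-fold in either direction, so for these a larger average change was outside the interval, and for the other 14 it was not.

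Each age gave the same count, and the 3 comparisons share the 5 young libraries. At 12 months 0 of the 38 were called (0.532% of all genes), 4 had an unadjusted p below 0.05 (9.56% of all genes), and voom called 0, with 2 below 0.05. At 18 months 0 of 38 were called (0.673% of all genes), with 3 below 0.05 (7.18% of all genes), and voom called 0, with 3 below 0.05. At 24 months 0 of 38 were called (0.78% of all genes), with 6 below 0.05 (9.97% of all genes), and voom called 0, with 6 below 0.05. Groups did not overlap in 0 of the 38 at 12 months (1.98% of all genes), in 1 at 18 months (2.05%) and in 1 at 24 months (2.81%). The median log2 fold changes were −0.05, −0.06 and −0.05 without *Sp100* and −0.05, −0.04 and −0.04 with it, and with it 1 of 39 was called in each of the 4 comparisons with young libraries, a count that the choice of *Sp100* fixes.

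**Figure D1:**
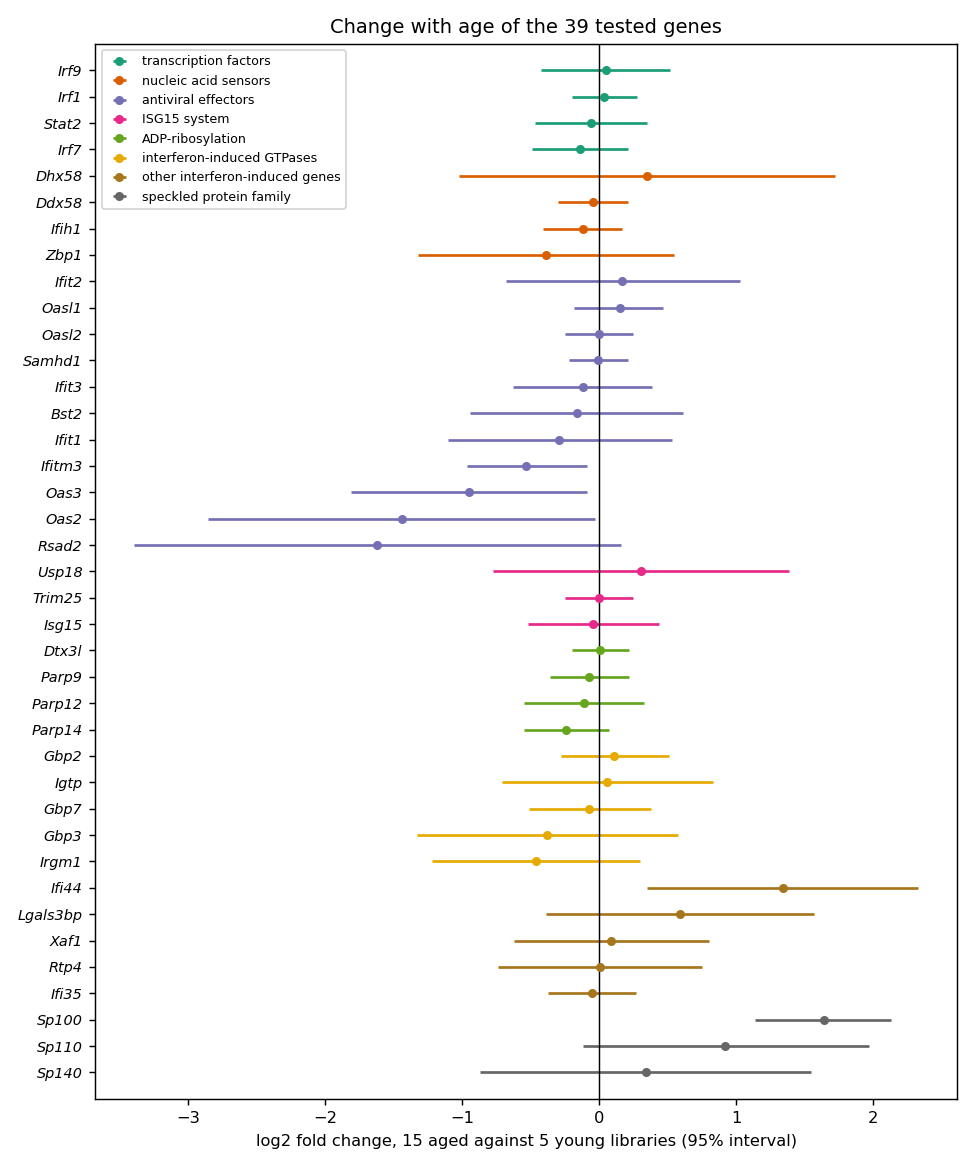
The plot gives the log2 fold change of each of the 39 tested genes between 15 aged and 5 young libraries (x axis) with its 95% interval, grouped by role (colour). Most points lie close to 0, the widest intervals belong to genes with few reads such as *Rsad2* (−3.39 to 0.16), and *Sp100*, which was picked for its rise, stands at 1.64. The interval drawn for *Sp100* does not allow for that choice.

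Between aged groups, 24-month against 12-month libraries gave 1 call among the 38 genes with limma and with voom, *Irf1* (0.195% of all genes were called), and it was also the 1 whose groups did not overlap (3.24% of all genes). There were 5 unadjusted p-values below 0.05 (14.7% of all genes). Between 18 and 12 months limma and voom called 0 of 38 (0.00886% of all genes), and 2 had an unadjusted p below 0.05 with each tool (limma: 7.43% of all genes), and groups did not overlap in 0 (1.13% of all genes). Between 24 and 18 months both called 0 (0% of all genes), with 4 below 0.05 in limma (5.31% of all genes) and 6 with voom, and groups did not overlap in 0 (1.2% of all genes).

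The speckled protein family comes first, because *Sp100* was the gene that set the list apart. *Sp100* (NCBI gene 20684, chromosome 1 of GRCm38.p6 from 85649948 to 85709998) encodes a chromatin reader that is a constant part of PML nuclear bodies, the nuclear spots in which incoming viral genomes are silenced. It had 51.5, 83.9, 69.4, 226.8 and 55.0 normalized counts in young replicates 1 to 5, then 128.7, 239.4, 214.3, 277.6 and 312.2 at 12 months. It had 225.6, 336.6, 276.3, 198.9 and 255.3 at 18 months and 280.8, 237.4, 435.2, 271.5 and 313.4 at 24 months. The means rose from 97.3 ± 73.5 (SD, n = 5) in the young group to 234.4 ± 69.9, 258.5 ± 52.6 and 307.7 ± 76.2. Young replicate 4, at 226.8, lay far above the other 4 young libraries (51.5 to 83.9) and inside the range of the 12- and 18-month groups, while all 24-month libraries were above it.

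As a description, the log2 fold change of *Sp100* was 1.44 at 12 months (95% interval 0.83 to 2.04), 1.62 at 18 months (1.01 to 2.22) and 1.86 at 24 months (1.25 to 2.46). Over all aged libraries it was 1.64 (1.14 to 2.13), which is 3.11-fold, and without young replicate 4 it was 2.00. *Sp110* and *Sp140*, 2 of the genes near it on chromosome 1, are paralogs that share sequence with it. Reads may be split among them, and both had few reads. *Sp110*, a macrophage defence gene whose span (85570735 to 85610850) overlaps that of *Sp140*, had 13.2, 6.00, 5.48, 18.0 and 15.2 normalized counts in young and 18.3, 24.6, 42.9, 43.0 and 30.9 in 18-month libraries. The 18-month values were all above the young ones (1.04% of all genes), with the lowest of them, 18.3, next to the highest young value, 18.0, and the change of 1.45 (0.18 to 2.73) was not called (limma adjusted p = 0.595, two-sided exact permutation p = 0.00794, the smallest that 5 against 5 libraries can give). *Sp140* had 0.949 to 17.5 in young and 7.53 to 28.5 in 24-month libraries, overlapping at every age.

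**Figure D2:**
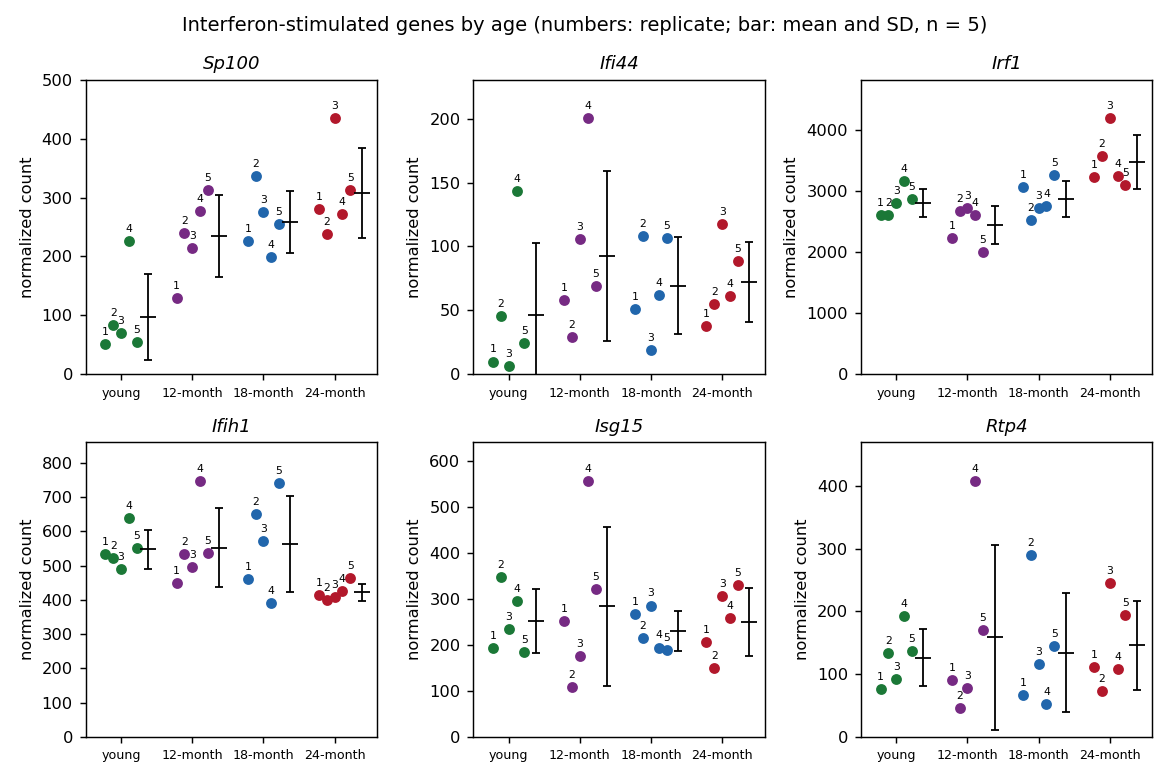
Each panel shows the normalized count (y axis, from 0) of 1 gene in the 5 libraries of each age, with the replicate number above each point and the mean and SD as a black bar (bars that would pass below 0 end at 0). *Sp100* is lower in 4 of the 5 young libraries than in any aged library, *Irf1* separates 24-month from 12-month libraries, *Ifih1* separates 24-month from young libraries, and in *Ifi44*, *Isg15* and *Rtp4* the ages overlap.

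Among the transcription factors of the pathway, none of the 4 was called against the young group at any age. *Irf1*, a factor induced by interferon gamma that also keeps basal antiviral genes on in epithelia, was the exception between aged groups. It had 2619, 2605, 2816, 3164 and 2869.5 normalized counts in young, 2236, 2678, 2725, 2613.5 and 2009.6 in 12-month, 3069.8, 2529, 2720.2, 2760.2 and 3271 in 18-month and 3237, 3580.2, 4203, 3259.8 and 3112.5 in 24-month libraries. All 5 24-month libraries lay above all 5 of 12 months, which held in this direction for 1.5% of all tested genes, and 4 of the 5 lay above the highest young library.

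The change of *Irf1* from 12 to 24 months was 0.51 on the log2 scale (standard error 0.109, 95% interval 0.28 to 0.73, limma adjusted p = 0.0419, exact permutation p = 0.00794). The call lay close to the threshold and was lost in 15 of the 20 fits that left out 1 library, with changes of 0.44 to 0.55. It held only without young replicate 1, 2 or 3, 12-month replicate 3 or 18-month replicate 2. Against the young group the 24-month change was 0.30 (0.08 to 0.52, limma adjusted p = 0.282). *Stat2* and *Irf9*, which carry type I signals to the ISRE, changed by −0.06 (−0.47 to 0.35) and 0.05 (−0.42 to 0.52) between aged and young libraries, and *Irf7*, which amplifies interferon production, by −0.14 (−0.49 to 0.21). *Irf9* ranged from 246.6 to 458.8 in young and from 200.7 to 687.7 in aged libraries, so the spread within an age exceeded the difference between ages.

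The nucleic acid sensors gave one separation without a call. *Ifih1*, which encodes MDA5, the sensor of long double-stranded RNA, had 533.8, 521, 490.4, 640.0 and 552 normalized counts in young libraries and 414.4, 398.4, 409, 425.5 and 464 at 24 months. The 24-month values were tight and all below the young ones, which held in this direction for 1.55% of all genes, but the change of −0.37 (−0.69 to −0.05) was not called (limma adjusted p = 0.409, exact permutation p = 0.00794). At 12 and 18 months *Ifih1* overlapped the young range, at 448.6 to 747.6 and 390.6 to 742.6.

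*Ddx58*, which encodes RIG-I, the sensor of short RNA with a triphosphate end, stayed between 409 and 731.3 in all 20 libraries, and its aged-to-young change was −0.04 (−0.30 to 0.21). *Dhx58*, which encodes LGP2, the regulator of these 2 sensors, was read from 0 to 98 times per library. *Dhx58* had 54.6, 52.0, 92.7, 36.5 and 73.4 normalized counts at 24 months and 19.3, 0, 20.4, 32.1 and 65.0 at 12 months. This change of 1.93 (0.38 to 3.48), which includes the 0 of 12-month replicate 2, was not called (limma adjusted p = 0.239). The 24-month change was 1.47 against young libraries (−0.08 to 3.02, limma adjusted p = 0.529). Against 18-month libraries it was 1.42 (−0.13 to 2.97, limma adjusted p = 0.919), and neither was called. *Zbp1*, a sensor of left-handed nucleic acid that can trigger cell death, had 19.9 to 39.2 in young and 5.65 to 68.8 in aged libraries, with a change of −0.39 (−1.32 to 0.55).

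Of the 14 antiviral effectors, 11 were tested, and 8 of the 11 had a log2 fold change below 0 between aged and young libraries, with a median of −0.16. The 3 lowest values belonged to genes with few reads. *Oas3*, an enzyme that makes the second messenger of RNase L, had 41.7, 58.5, 73.1, 112.3 and 68.3 normalized counts in young libraries and 14 to 102 in aged ones, with a median of 29.3. Its change of −0.95 (−1.81 to −0.09) was not called (limma adjusted p = 0.521), and 10 of the 15 aged libraries lay below every young one. *Oas2*, of the same family, had 5.48 to 65.7 in young and 0 to 53.9 in aged libraries (−1.44, −2.85 to −0.03, limma adjusted p = 0.621). *Rsad2*, which encodes viperin, an inhibitor of viral replication and budding, had 14.6 to 63.0 in young libraries and 0 to 126.3 in aged ones (−1.62, −3.39 to 0.16, limma adjusted p = 0.705).

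The other effectors were not called either. *Ifitm3*, which blocks fusion of viruses with endosomes, had 1165, 673, 441, 766 and 412.6 normalized counts in young and 227.1 to 757 in aged libraries, a change of −0.53 (−0.96 to −0.09) that was not called (limma adjusted p = 0.422). *Oasl1* and *Oasl2*, relatives of the OAS enzymes, changed by 0.15 (−0.18 to 0.47) and 0.00 (−0.25 to 0.25), and *Samhd1*, which depletes nucleotides, by −0.01 (−0.22 to 0.21). The IFIT proteins bind foreign RNA ends: *Ifit1* had 52.6, 170.9, 66.7, 288.2 and 77.8 in young libraries and 40.8 to 341.7 in aged ones (−0.29, −1.10 to 0.53), and *Ifit3* had 209.4 to 546.7 and 198.6 to 760.6 (−0.12, −0.63 to 0.39). *Ifit3* and *Ifit3b* are near copies, and *Ifit1* lies inside the span annotated as *Ifit1bl1*, so their reads may be shared. *Ifit2* changed by 0.17 (−0.68 to 1.03), and *Bst2*, which encodes tetherin, by −0.16 (−0.94 to 0.61).

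*Mx1* and *Mx2*, the myxovirus resistance GTPases, were near the detection limit. *Mx1*, which C57BL/6J mice carry in a disrupted form, had 0 reads in 11 of the 20 libraries and reached 27.5 normalized counts in young replicate 4, 14 in 12-month replicate 4, 14.2 in 24-month replicate 3 and 17.9 in 24-month replicate 5. *Mx2* had 0 to 13.8 in young and 0 to 25.1 in aged libraries, with its highest values in young replicate 4 and 12-month replicate 4. *Oas1a* had 1.5 to 19.1 in young and 0 to 21.6 in aged libraries.

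In the ISG15 system, which attaches a ubiquitin-like tag to proteins, no gene was called against the young group. *Isg15*, the tag itself, had 192.9, 348.5, 234.7, 295.6 and 185 normalized counts in young, 252.8, 109, 176.8, 557 and 322 in 12-month, 268, 216, 286, 194.4 and 189.5 in 18-month and 205.7, 149.6, 306.5, 259 and 331 in 24-month libraries. Its mean was 251 ± 69.8 (SD, n = 5) in young and 250.5 ± 74 in 24-month libraries, and the aged-to-young change was −0.04 (−0.52 to 0.44). *Usp18*, which removes the tag and restrains the receptor, changed by 0.31 (−0.77 to 1.39).

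*Trim25*, the ligase that activates RIG-I, had 1348, 1056, 1080.4, 1018 and 1245.5 normalized counts in young and 1417, 1164, 1602.5, 1460.2 and 1318 in 24-month libraries. The change of 0.28 (0.02 to 0.53) was not called (limma adjusted p = 0.448), nor was that from 12 months, 0.41 (0.16 to 0.67, limma adjusted p = 0.136). The enzymes of ADP-ribosylation, *Parp9*, *Parp12*, *Parp14* and the partner ligase *Dtx3l*, changed by −0.24 to 0.01 between aged and young libraries, with intervals inside −0.55 and 0.33.

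The interferon-induced GTPases coat and break the vacuoles of intracellular pathogens and are known as targets of interferon gamma. Their aged-to-young changes ran from −0.46 for *Irgm1* (−1.22 to 0.30) to 0.11 for *Gbp2* (−0.28 to 0.51), and none was called at any age. *Igtp* had 17.1, 225.2, 54.0, 31.4 and 93.8 normalized counts in 18-month replicates 1 to 5, and *Gbp2* had 312.2, 557.1, 230.3, 251.7 and 363.6. *Gbp7* had 103.7, 437.5, 206.4, 206.9 and 331.7 in the same libraries. For these 3 genes replicate 2 was highest and replicate 5 next, and the 18-month range took in the mean of every other age. *Gbp3* was low, at 3.95 to 38.7 in all libraries.

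Of the other induced genes, *Ifi44*, a gene of unsettled biochemical role that rises in most interferon responses, had the highest log2 fold change of the 38 genes. It had 9.87, 45.7, 6.39, 143 and 24.7 normalized counts in young libraries, 57.9, 28.9, 106, 200.4 and 68.8 at 12 months, 51.2, 107.9, 19.1, 61.8 and 106.4 at 18 months and 38, 54.5, 117, 60.9 and 88.5 at 24 months. The young group held both the lowest values and, in replicate 4, the second highest of all. Its aged-to-young change of 1.34 (0.35 to 2.33) was not called (limma adjusted p = 0.297, exact permutation p = 0.0426). Without young replicate 4 the change was 1.94 and passed (limma adjusted p = 0.0339), so 1 library decided this call.

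*Rtp4*, a chaperone of receptor trafficking that dampens interferon signalling, had 75.6, 133.4, 92.2, 192.8 and 136.6 normalized counts in young libraries, 91, 46, 77.1, 407.9 and 169.5 at 12 months, 67.1, 289.7, 117, 52.0 and 144 at 18 months and 111, 72.4, 245, 107.9 and 193.9 at 24 months. Its change was 0.01 (−0.74 to 0.75), and at each age the highest library lay far from the lowest. *Lgals3bp*, a secreted glycoprotein, changed by 0.59 (−0.39 to 1.57), *Xaf1*, which promotes cell death, by 0.09 (−0.62 to 0.80) and *Ifi35* by −0.05 (−0.37 to 0.27).

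Animals of the same age differed widely in many of these genes. The SD within an age had a median of 0.562 on the log2 scale over the 38 genes and 0.387 over all tested genes. Among genes with a mean of at least 50 normalized counts the medians were 0.374 for 26 interferon-stimulated genes and 0.325 for 8741 genes. Single libraries held many of the highest values together. Young replicate 4 was the highest of the 5 young libraries in 19 of the 38 genes (50%), where it was highest in 13.4% of all tested genes. For 12-month replicate 4 the count was 20 of 38 (52.6%, beside 19.3% of all genes) and for 24-month replicate 3 it was 23 of 38 (60.5%, beside 23.7%). At 18 months replicate 2 was highest in 15 (39.5%, beside 27.1%) and replicate 5 in 12 (31.6%, beside 20.4%).

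**Figure D3:**
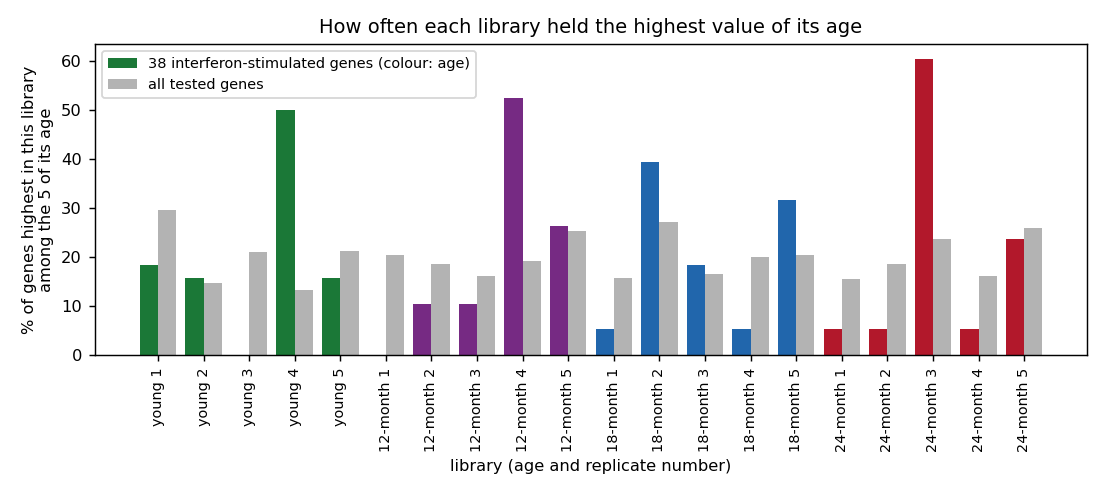
Bars give the percent of genes that were highest in each library among the 5 of its age (y axis, from 0), for the 38 genes without *Sp100* (coloured by age) and for all tested genes (grey). Young replicate 4, 12-month replicate 4 and 24-month replicate 3 reach 50% to 60.5% of the 38 genes, above their grey bars of 13.4% to 23.7%.

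Some genes had their highest value in all of young replicate 4, 12-month replicate 4 and 24-month replicate 3. These were 10 of the 38 (26.3%, beside 0.806% of all tested genes): *Irf7*, *Irf9*, *Ifit1*, *Ifit3*, *Oas3*, *Usp18*, *Ifi44*, *Xaf1*, *Rtp4* and *Lgals3bp*. Only *Ifit2*, *Samhd1*, *Dtx3l* and *Igtp* had it in none of the 3 (10.5%, beside 54.3% of all genes). The 3 libraries were picked after their values were seen, so these shares are a description. *Sp100* too was highest in young replicate 4, 18-month replicate 2 and 24-month replicate 3 of their ages, at 226.8, 336.6 and 435.2, and at 12 months in replicate 5.

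Other libraries held many of the lowest values. The lowest of its age was 12-month replicate 2 in 16 of the 38 genes (42.1%, beside 18.4% of all genes), 18-month replicate 4 in 15 (39.5%, beside 17.9%) and 24-month replicate 2 in 18 (47.4%, beside 18%). These 3 libraries had 6699383, 9018527 and 9681497 reads, and young replicate 4, 12-month replicate 4 and 24-month replicate 3 had 7899145, 8463854 and 8947693. The part of depth in this order was not tested. The median deviation of the 38 genes from the age mean ran from −0.25 in 12-month replicates 1 and 2 to 0.52 in 12-month replicate 4, where that of all genes was 0.01 to 0.02.

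**Figure D4:**
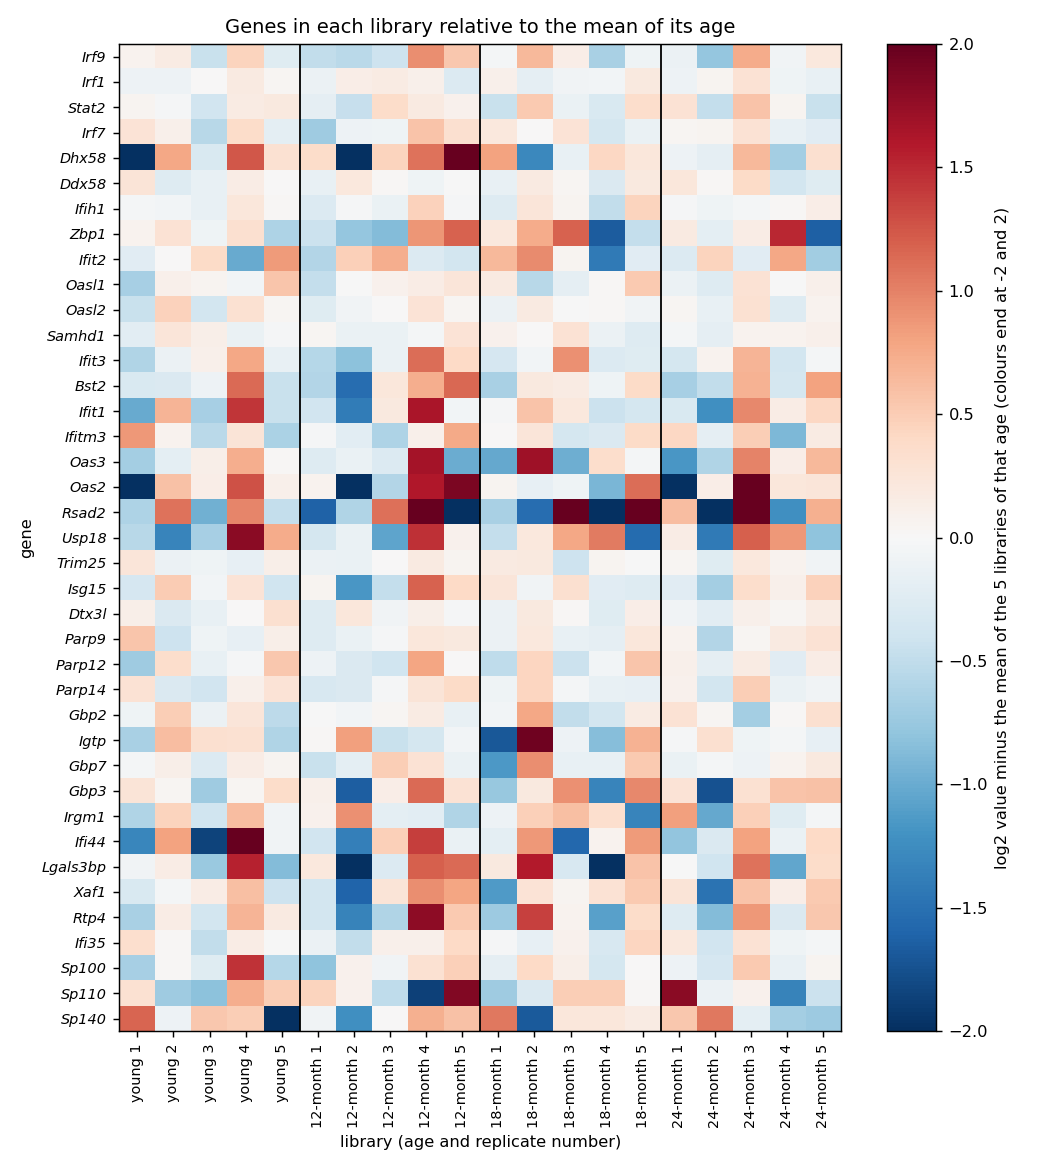
Colour gives the log2 value of each of the 39 tested genes (rows, grouped by role) in each library (columns, grouped by age) minus the mean of the 5 libraries of that age. Columns of mostly one colour include young replicate 4, 12-month replicate 4 and 24-month replicate 3 (high). Low columns include 12-month replicates 1 and 2 and 24-month replicate 2.

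Leukocytes respond strongly to interferon, so their markers are given beside this order. The summed level of the 21 leukocyte markers in the table was 1419 in young replicate 4, the lowest of the young range of 1419 to 2347. It was 1370 in 12-month replicate 4 (range of that age 1245 to 1969) and 1233 in 24-month replicate 3 (1036 to 1690), in the middle of their ages, and 1956 in 18-month replicate 2, the highest of its age (1216 to 1956). Over all ages it was 1419 to 2347 in young and 1036 to 1969 in aged libraries, and 0 of the 11 tested markers were called with limma (beside 1.01% of all genes), with 2 at an unadjusted p below 0.05 (beside 7.89%). Young replicate 4 also had the lowest keratocyte sum (1848) and the lowest sum of 8 conjunctiva markers (29000) of the young libraries, and 18-month replicate 2 the highest keratocyte sum of its age (1492). Of the markers that define keratocytes, *Kera* was 14.8 to 42.8 in young and 0 to 91.5 in aged libraries and *Lum* 51.2 to 114.2 and 3.78 to 109.1, and 18-month replicate 2 held the top aged value of both. The goblet cell mucin *Muc5ac* was 0 to 30.0 and the myeloid marker *Tyrobp* 0 to 32.2 in all libraries, whereas *Krt13*, a keratin of the conjunctiva, was at 22396 to 42636. The part of these cells in the levels of the interferon-stimulated genes was not tested.

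The rest of the pathway was read from lists of its parts. Ligands were nearly absent: of 21 interferon genes, 19 had 0 reads in every library, *Ifne* had 7 reads in 24-month replicate 4 and *Ifnz* 2 in 12-month replicate 3. A count of 0 at these depths does not show that the cells around the epithelium made none. All 11 receptor and JAK-STAT genes were tested and 0 were called between aged and young libraries (beside 1.01% of all genes), with 2 at an unadjusted p below 0.05 (beside 7.89% of all genes). The lowest p-values belonged to *Ifngr2*, a chain of the interferon gamma receptor, with −0.37 (−0.71 to −0.03, limma adjusted p = 0.535), and to the kinase gene *Jak2*, with −0.27 (−0.52 to −0.02, limma adjusted p = 0.564). Between 24 and 12 months 0 of the 11 were called (beside 0.195% of all genes). There, 4 had an unadjusted limma p below 0.05 (beside 14.7% of all genes).

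Of 12 tested genes that act between sensing and interferon production, limma called 0 and 0 had an unadjusted p below 0.05 (beside 1.01% and 7.89% of all genes, as for the next 2 lists), with *Irf5* at −0.49 (−1.04 to 0.07) and *Traf6* at −0.30 (−0.68 to 0.07). The 5 tested brakes on the pathway gave 0 and 0 as well, with *Ptpn6* at 0.20 (−0.07 to 0.47) and *Ptpn2* at −0.20 (−0.57 to 0.17). The 15 tested genes of PML nuclear bodies, the home of SP100, gave 0 calls and 0 unadjusted p-values below 0.05 between aged and young libraries, with a median of 0.03. *Ubn1* (0.12, −0.06 to 0.29) and *Sumo3* (0.24, −0.14 to 0.61) had the lowest p-values. Between 24 and 12 months the sensing genes, the brakes and the PML genes gave 0 calls (beside 0.195% of all genes). Unadjusted limma p-values below 0.05 numbered 2, 1 and 5 in these lists (beside 14.7% of all genes), and the PML median was −0.27.

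A list of 54 further interferon-induced genes, of which 41 were tested, held the only other calls among the pathway lists. The list was chosen with earlier results of these data known, so its share of calls is a description and not a test. Between aged and young libraries 2 rose and 1 fell, beside 0.478% of all genes upregulated and 0.532% downregulated, and the median of the list was −0.10. *Trim30a* (NCBI gene 20128, chromosome 7 from 104409025 to 104465193), a negative regulator of Toll-like receptor and inflammasome signalling, had 294.9, 489, 325, 647 and 300.7 normalized counts in young libraries. It had 602, 572, 560.4, 934 and 737 at 12 months, 607, 909, 668, 600.2 and 797 at 18 months and 615, 526, 731, 574 and 572 at 24 months. Young replicate 4 again lay in the aged range, and the other 4 young libraries lay below all aged ones. The change was 0.75 (standard error 0.155, 95% interval 0.43 to 1.06, limma adjusted p = 0.00819), and without young replicate 5 it was 0.65 and no longer passed (limma adjusted p = 0.0595). Of the single ages only 18 months was called, with 0.85 (limma adjusted p = 0.0209), beside 0.77 at 12 months (limma adjusted p = 0.0562) and 0.62 at 24 months (limma adjusted p = 0.161).

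*Gbp4* (NCBI gene 17472, chromosome 5 from 105115767 to 105139586), a guanylate-binding protein like *Gbp2* and *Gbp7*, had 38.4, 77.2, 27.4, 64.6 and 41.7 normalized counts in young libraries. It had 55.2, 115.8, 120.0, 172.4 and 121 at 12 months, 141.5, 160.7, 107, 72.6 and 94.8 at 18 months and 86.8, 118.7, 102, 93.1 and 93.2 at 24 months. All 24-month libraries were above all young ones, which held in this direction for 1.26% of all genes, while each age alone was not called against the young group (limma adjusted p = 0.0599, 0.0527 and 0.118). The aged-to-young change was 1.17 (standard error 0.242, 95% interval 0.68 to 1.66, limma adjusted p = 0.00819), and it was 0.98 and no longer passed without young replicate 3 (limma adjusted p = 0.0582). The genes *Gbp4*, *Gbp2*, *Gbp3* and *Gbp7* are close in sequence, and reads may be split among them.

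*Ifit1bl1* (NCBI gene 667373, chromosome 19 from 34592888 to 34662981), a relative of *Ifit1* of no settled role, went the other way. It had 8319, 9364, 7131, 8025 and 7713 normalized counts in young libraries and 3353 to 6226 in the 15 aged ones, so that no aged library reached the young range, which held in this direction for 0.301% of all genes. The change was −0.80 (standard error 0.11, 95% interval −1.02 to −0.57, limma adjusted p = 5.6e-05), with −0.66, −0.78 and −0.95 at 12, 18 and 24 months, each of them called. Its span overlaps 4 other annotated genes, *Ifit1* and *Ifit3b* among them, and the strand setting of the read counting was not given in the sources used here. For *Ifit1* itself the change was −0.29 (−1.10 to 0.53) and not called.

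**Figure D5:**
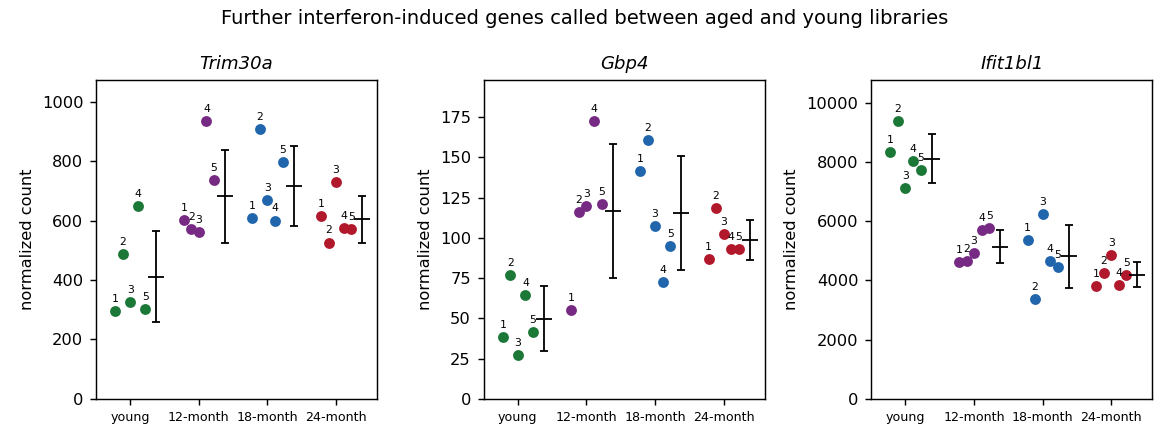
Each panel shows the normalized count (y axis, from 0) of *Trim30a*, *Gbp4* and *Ifit1bl1* in the 5 libraries of each age, with the replicate number above each point and the mean and SD as a black bar. The young libraries sit low in *Trim30a* apart from replicate 4, low in *Gbp4*, and above all aged libraries in *Ifit1bl1*.

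The 3 called genes stood beside changes in markers of other cell types. Summed keratocyte markers were lower in aged libraries (374 to 1700) than in young ones (1848 to 4934), and of 7 tested conjunctiva markers *Krt4* and *Krt19* were downregulated, with log2 fold changes of −1.23 and −0.67. The 8 corneal epithelium, 2 melanocyte and 1 vessel markers tested gave 0 calls with limma (1, 0 and 0 at an unadjusted p below 0.05), and the melanocyte sum was 44 to 133 in all libraries but 12-month replicate 3, where it was 1049. The part of these cells in the changes of *Sp100*, *Trim30a*, *Gbp4* and *Ifit1bl1* was not tested. Within the young group the keratocyte sum of replicate 4 was the closest to the aged range. For *Sp100* and *Trim30a* only replicate 4 lay inside the aged range. For *Gbp4* replicates 2 and 4 both lay inside it, and for *Ifit1bl1* replicate 3 came closest. These values rest on 1 library each, and a link between them was not tested.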

How the data were processed

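RNA from the corneal epithelium of 20 female mice was sequenced from its 3′ end. Per the labels, the authors trimmed reads with cutadapt, checked them with FastQC, aligned them with STAR to GRCm38, counted them per gene with HTSeq and normalized them with DESeq2. Versions, annotation and strand setting are not given in the sources used here. The authors deposited 1 table of log2(normalized count + 1) values, in which no replicates were pooled, and its columns were matched to samples by their names. Undoing the log gave normalized counts, and dividing out 1 step per library gave whole reads for 100% of values (tolerance 0.01), with 6699383 to 10762360 reads per library. The number of reads limits precision, and intervals cover the spread between animals.

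Genes with a mean of at least 10 normalized counts (11288 of 24552) were tested on the deposited log2 values with limma 3.58.1 (trend) in R 4.3.3. The 4 ages shared 1 fit, and the 15 aged libraries formed 1 group in another. Calls needed a Benjamini-Hochberg adjusted p of at most 0.05 over all tested genes and a 1.2-fold change, the thresholds of the study. Fold changes are on the log2(normalized count + 1) scale, which understates those of low genes. Two-sided exact permutation tests of mean log2 values were added for single genes. Scripts were tested on simulated data, and the alternatives tried were other filters, quantile normalization, voom with TMM on recovered reads, a replicate block, other thresholds and pseudocounts, and leaving out each library. Motifs were searched in RefSeq promoters (GRCm38.p6).

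The 42 genes and all gene lists were chosen with earlier results of these data known. All 42 genes were eligible to be named. From the further lists, genes called in any comparison were named, with otherwise the 2 of lowest unadjusted p per pathway list, and from cell type lists the sums, defining markers and called genes. Of the called keratocyte markers only the number is given, and a result on a withheld gene is not reported here.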

Additional observations from a re-analysis of the deposited data

Results flagged for a closer look

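Of 168 groups of 5 libraries (42 genes at 4 ages), 8 held a library that stood apart from the other 4 by a Dixon test (4.76%). The test used log2(normalized count + 1) values, while normalized counts are printed here. Chance alone gives about 1 in 20 for independent groups of normally spread values, and these groups share libraries. Low values came most often from 24-month replicate 2, with 278.9 normalized counts of *Parp9* (428.5 to 510.1 in the other 4), 4.07 of *Gbp3* (19.5 to 24.5) and 18.7 of *Xaf1* (59.2 to 80.4). *Xaf1* also stood low in 18-month replicate 1, at 30.5 (70.7 to 98.6), and *Dhx58* was at 0 in 12-month replicate 2 (19.3 to 65.0). High values stood apart in young replicate 4 for *Bst2*, at 69.9 (22.8 to 29.2), in 18-month replicate 3 for *Ifit3*, at 485.1 (206.1 to 248.7), and in 18-month replicate 2 for *Parp14*, at 626.3 (414.8 to 449.4).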

How the results depend on the processing

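The counts of called genes are given here without *Sp100*, whose rise put it on the list. They were 0 at 12, 18 and 24 months and in all aged against young libraries. *Irf1* between 24 and 12 months was lost, leaving 0, without the filter on low values (limma adjusted p = 0.0761), with only the groups compared (0.0891), with the replicate block (0.0839) and at a 1.5-fold threshold, where its change of 0.51 was too small. Leaving out each library in turn gave no call at 12, 18 or 24 months against young libraries. In aged against young libraries *Ifi44* was the only call, without young replicate 4. Between 24 and 12 months the count was 0 to 1. The median change between 24 and 12 months ran from −0.13 to 0.23 (0.23 without 12-month replicate 4), and the other medians from −0.15 to 0.22. A count was taken as unchanged when equal or within 1.5-fold, and a single gene when its call held (for *Sp100*, when its change stayed within its error). A median was taken as unchanged within 0.239 log2, a margin wider than the medians themselves, so few could fail it. By these rules 194 of 207 values stayed unchanged over the alternatives that left out no library. This total includes counts with *Sp100*. The count of genes highest in young replicate 4 was 18 to 19 of 38 under other scalings, in 12-month replicate 4 it was 20, in 24-month replicate 3 it was 21 to 24, and in 18-month replicate 2 it was 11 to 16. Replicate numbers did not pair the samples: over 30 pairs of same-numbered libraries the correlation of deviations was −0.303 to 0.159, with a median of 0.008, and 3 pairs were above 0.1. The replicate block changed no call but that of *Irf1*. A fit of only the groups compared is the same as the full fit for aged against young libraries and was not run there. Depth limits the low genes: *Mx1* had 0 reads in 11 libraries. Between aged and young libraries, apart from *Sp100*, some 95% intervals reached past 1.5 on the log2 scale in at least 1 direction. They were those of *Rsad2*, *Oas2*, *Oas3*, *Dhx58*, *Sp110*, *Sp140*, *Ifi44* and *Lgals3bp*. The parts of depth and of spread between animals in these intervals were not told apart. The cause of the lost calls was not tested.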
